A study of Mus musculus with 6 samples.

Results

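The genes described here are Mtdh, which encodes AEG-1 (astrocyte elevated gene-1), and 9 genes of the RNA silencing machinery: Snd1, the Argonautes Ago1, Ago2, Ago3 and Ago4, Dicer1, Tarbp2, Tnrc6a and Tnrc6b. They were chosen by name, as AEG-1, its partner SND1 and the proteins that make or carry small RNAs, and not by their values. These 10 genes were among 46983 gene identifiers in the deposited table, and all 10 were among the 16115 genes with enough reads to be tested. The RNA came from macrophages that had been grown out of femur marrow of mice. Donor mice were C57BL/6, either wild-type (WT) or carrying an AEG-1 knockout (AEG-1 KO). Culture lasted 7 days in both groups, in medium with 10% heat-inactivated serum and 20% conditioned medium of L929 cells, a fibroblast line that secretes a macrophage growth factor; no treatment was given, and each group has 3 libraries. The labels do not give the age of the mice, the part of the gene that was removed, or whether the 3 libraries of a group came from separate animals. The p-values therefore reflect library-to-library spread alone, and this may be technical.

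RNA silencing works through short guide RNAs called microRNAs (miRNAs). Dicer, helped by the double-stranded RNA-binding protein TRBP (gene Tarbp2), cuts them from hairpin precursors, and an Argonaute protein holds one strand as a guide inside the RNA-induced silencing complex (RISC). The guide pairs with a target mRNA mostly through its seed, bases 2 to 8. TNRC6 (GW182) proteins bound to Argonaute then recruit the enzymes that shorten the poly(A) tail and remove the cap. Ago2 is the Argonaute known for cutting fully paired targets. SND1, a Tudor and staphylococcal nuclease-like protein, is a known component of RISC, and AEG-1 is known to bind SND1 in tumour cells. In macrophages, miRNAs such as miR-223, miR-155 and miR-146a are known regulators of inflammatory genes.

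Total counts ran from 42548170 to 58947230 per library. Levels are given as CPM, the depth-normalised read count scaled by TMM factors, and 1 CPM was 42.59 to 58.51 reads. All 13 pan-macrophage markers were detected, with a summed level of 20019 to 20445 CPM in WT and 20940 to 21294 CPM in AEG-1 KO. Of these, 4 rose and 1 fell (38.5% called at an edgeR adjusted p under 0.05), with a median log2 fold change of 0.20. Over all tested genes 6.35% were called, 3.31% higher and 3.04% lower. The growth factor receptor Csf1r, the receptors Mertk and Mrc1 and the endotoxin co-receptor Cd14 were higher by 0.38, 0.39, 0.42 and 0.35 on the log2 scale. Adgre1, the F4/80 gene, named after its values were seen, fell by 0.19 (edgeR adjusted p = 0.0238). Markers of other cells differed between the groups as well. Of 12 monocyte and progenitor markers 8 were tested, of which 4 rose and none fell, and the summed level was 59.2 to 63.8 CPM in WT and 87.4 to 91.7 CPM in AEG-1 KO. The 4 were Ccr2, Plac8, F13a1 and Ly6c2 (log2 fold changes 0.67, 0.88, 0.60 and 0.58; Ly6c2 shares near-identical sequence with Ly6c1). Of 11 neutrophil markers 6 rose and 1 fell, with sums of 449 to 458 and 506 to 555 CPM. Ngp, Ltf, S100a8 and S100a9, all genes of neutrophil granule or cytosolic proteins, had log2 fold changes of 0.65, 0.62, 0.49 and 0.63. Only 2 of this list were called without WT replicate 2 or without AEG-1 KO replicate 2. Of 8 tested fibroblast and stromal markers out of 11, 5 rose and none fell, with sums of 6.32 to 8.19 and 11.5 to 13.7 CPM. This count was 3 when replicate 2 of WT, or replicate 2 or 3 of AEG-1 KO, was left out. The collagen genes Col1a2, Col6a2 and Col6a1 averaged 1.24, 0.486 and 0.972 CPM in WT and 2.37, 1.19 and 1.98 CPM in AEG-1 KO, and Dcn, a matrix proteoglycan gene, 0.0608 and 0.279 CPM. With 2, 4 and 3 reads in WT and 13, 12 and 12 in AEG-1 KO, Dcn met the count filter only through the group where it was high. Lum, Pdgfra and Thy1 of this list were left out by the filter. Mean Lum was lower in AEG-1 KO (0.0672 CPM, against 0.221 in WT), while those of Pdgfra and Thy1 were higher.

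In more detail, Ccr2, the monocyte chemokine receptor, stood at 12.8 ± 0.687 CPM in WT and 20.4 ± 0.385 in AEG-1 KO (SD, n = 3; edgeR quasi-likelihood test with Benjamini-Hochberg adjustment over all tested genes, adjusted p = 0.000493), and Ngp, a neutrophil granule gene, at 23.0 ± 1.92 and 36.1 ± 2.70 CPM (edgeR adjusted p = 0.0016). In RNA from a whole culture, a change in the number of cells of a type and a change in RNA per cell cannot be told apart. The part of these other cells in the results given here was not tested.

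Shown first, with the seed in capitals, are 3 of the miRNAs whose precursor transcripts or classical targets changed in these libraries. Mature sequences are from RefSeq (GRCm38.p6). The miRNAs themselves were not measured.
mmu-miR-223-3p: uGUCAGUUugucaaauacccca
mmu-miR-26a-5p: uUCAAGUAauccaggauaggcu
mmu-miR-33-5p: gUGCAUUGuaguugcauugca
The seeds of these 3 miRNAs differ from one another, so that each reads its own set of target sites.

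Mtdh was the only one of the 10 genes with a large difference. Its read counts were 11560, 14849 and 11806 for the WT libraries, against 15, 22 and 15 for those of AEG-1 KO. In CPM this was 259, 254 and 273 in WT and 0.333, 0.517 and 0.335 in AEG-1 KO, so that every knockout library lay far below every wild-type library. The mean in AEG-1 KO was 0.151% of the WT mean (log2 fold change -9.37 ± 0.10 SE, edgeR adjusted p = 6.62e-11). All 6 libraries thus had the Mtdh level that their label calls for. Mtdh lies on the plus strand of chromosome 15 (GRCm38, 34082694 to 34145624).

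Likeness to this pattern was measured among genes that averaged 1 CPM or more, as the root mean square difference of log2 CPM, centred on each gene's own mean, over the 6 libraries. Of 13290 genes, the nearest to Mtdh were Sdc2 (3.05), Rpl30 (3.17) and the pseudogene Gm14567 (3.54), against a median of 4.63 over all of them. As the Mtdh difference is so large, this distance mainly ranks genes by how far they fell. The AEG-1 KO means of Sdc2, Rpl30 and Gm14567 were 10.3%, 13.2% and 21.3% of their WT means. Sdc2, a cell surface proteoglycan gene, and Rpl30, a ribosomal protein gene, start at 32920723 and 34440505 on chromosome 15, on either side of Mtdh. Gm14567 on the X chromosome shares a stretch of up to 174 nucleotides, its whole length, with 6 genes including Polr2k at 95% identity or more, and 12 genes share such a stretch with Rpl30, so their counts are uncertain.

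Among the 9 silencing genes, 1 fell and 8 did not pass the test. Ago1 fell by 0.19 on the log2 scale, Snd1 lay just outside the threshold, and Ago4 leaned the other way. With Mtdh, 2 of the 10 genes were lower and none higher at an edgeR adjusted p under 0.05. Over all tested genes 6.35% were called, 3.04% lower and 3.31% higher. The median log2 fold change was -0.05 for the 10 genes and 0.01 for all tested genes. The groups did not overlap in 5 of the 10 genes, 4 of them lower (Mtdh, Snd1, Ago1 and Ago2) and 1 higher (Ago4). Over all tested genes, the groups did not overlap in 26.8%, with 12.9% wholly lower and 13.9% wholly higher in AEG-1 KO.

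**Figure D1:**
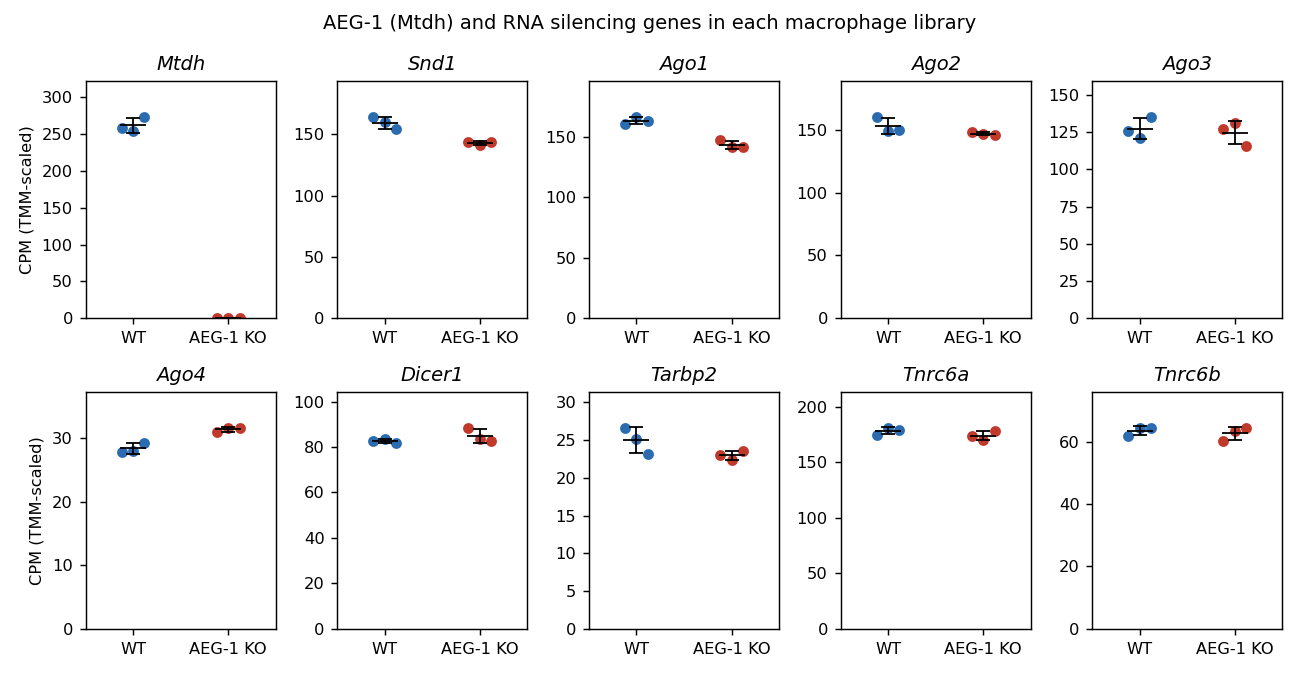
TMM-scaled CPM of the 10 genes in each library (points; linear axes from 0), with the mean (dash) and SD (bar, n = 3) in blue for WT and in red for AEG-1 KO. Mtdh is at 254 to 273 CPM in WT and under 1 CPM in every AEG-1 KO library, while the other 9 genes keep 87.7% to 111% of their WT mean.

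Snd1 encodes the partner through which AEG-1 is linked to RISC. It stood at 164, 160 and 154 CPM in WT and at 144, 141 and 144 CPM in AEG-1 KO. All 3 knockout libraries were below all 3 wild-type libraries, and the mean was 89.7% of WT. The difference (log2 fold change -0.16 ± 0.04 SE, 95% interval -0.25 to -0.06) missed the threshold over all genes (edgeR adjusted p = 0.0567). Its size was -0.18 to -0.15 in all 15 other settings tried, of which 6 put it past the threshold, among them DESeq2 (adjusted p = 0.0319) and edgeR without WT replicate 3, where the adjusted p was 0.037. Snd1 is on chromosome 6 (GRCm38, 28475139 to 28935162), away from Mtdh.

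Ago1 was the 1 Argonaute that passed the test. It stood at 160, 166 and 163 CPM in WT and at 147, 141 and 141 CPM in AEG-1 KO, with every knockout library below every wild-type library. The log2 fold change was -0.19 ± 0.04 SE (95% interval -0.28 to -0.10; edgeR adjusted p = 0.0265), a mean of 87.7% of WT. The call did not hold in every fit with 1 library left out. It was lost without WT replicate 2 (edgeR adjusted p = 0.13) and without AEG-1 KO replicate 1, 2 or 3 (edgeR adjusted p = 0.0558, 0.136 and 0.0833). The size stayed at -0.22 to -0.18 in all 15 other settings. Over all genes, the count called was 380 to 1092 in fits without 1 library, against 1023 as reported.

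Ago2, the slicing Argonaute, stood at 160, 149 and 150 CPM in WT and at 148, 147 and 146 CPM in AEG-1 KO. The groups lay apart by a small gap, and the log2 fold change of -0.06 (95% interval -0.16 to 0.04) did not pass the test (edgeR adjusted p = 0.483). Its exons overlap those of Chrac1 on the other strand over 219 nucleotides, and strand use in counting is not given in the sources used here. Ago3 stood at 126, 121 and 135 CPM in WT and at 127, 131 and 116 CPM in AEG-1 KO, with overlapping groups (log2 fold change -0.03, 95% interval -0.17 to 0.11; edgeR adjusted p = 0.831). Ago4 was the least abundant Argonaute per length. It stood at 27.8, 28.0 and 29.3 CPM in WT and at 30.9, 31.6 and 31.6 CPM in AEG-1 KO, with every knockout library above every wild-type library. The log2 fold change of 0.14 ± 0.05 SE (95% interval 0.03 to 0.26) did not pass the test after adjustment (edgeR adjusted p = 0.128), and no setting tried put it past the threshold.

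**Figure D2:**
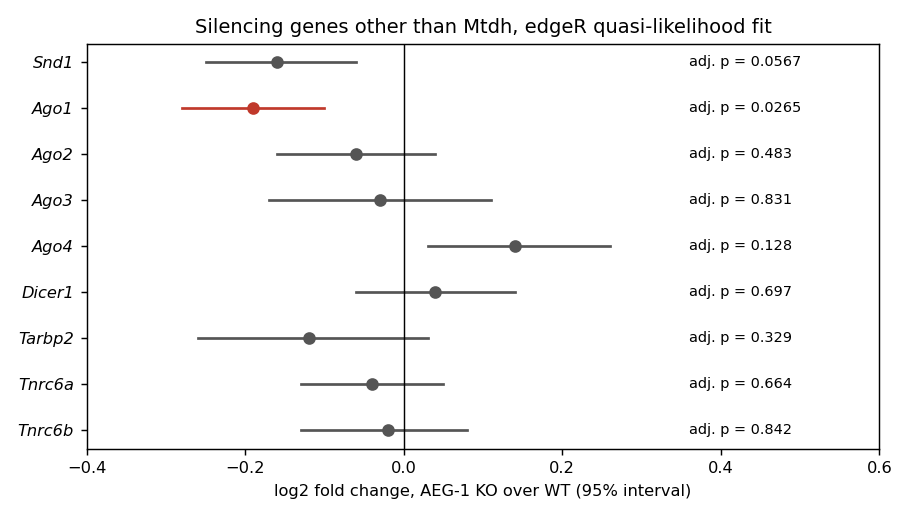
Log2 fold change of AEG-1 KO over WT (point) with its unadjusted 95% interval (line) for the 9 silencing genes, and the edgeR adjusted p at the right. Ago1 (red, -0.19) is the only one past 0.05, and all intervals lie between -0.28 and 0.26.

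Ago1, Ago3 and Ago4 are neighbours on the minus strand of chromosome 4 (GRCm38, 126435012 to 126468583, 126331704 to 126429556 and 126489541 to 126533472). Only 5455 bases separate Ago3 from Ago1, and 20957 bases separate Ago1 from Ago4. The middle gene of the 3, Ago1, had the largest fall, and one of its neighbours, Ago4, leaned upwards. Their ratio is featured for that reason, after these values were seen, and it restates the differences of both genes within each library. The ratio of Ago1 to Ago4 CPM was 5.75, 5.94 and 5.58 in WT and 4.76, 4.47 and 4.47 in AEG-1 KO. The log2 ratio was 0.33 lower in AEG-1 KO than in WT (2.19 against 2.52), with SDs of 0.0449 in WT and 0.0528 in AEG-1 KO. The groups did not overlap, and the exact permutation test (two-sided) gave p = 0.1, the smallest that 3 libraries against 3 allow. Of 9 pairs compared within the Argonautes and the TNRC6 genes, 5 did not overlap (Ago1/Ago2, Ago1/Ago4, Ago2/Ago4, Ago3/Ago4 and Tnrc6a/Tnrc6c), each with an exact permutation p = 0.1 and a Benjamini-Hochberg adjusted p = 0.18. The differences of these pairs are therefore descriptions that this design cannot take past 0.05. All of the 5 but Tnrc6a/Tnrc6c hold Ago1 or Ago4, whose own groups did not overlap, so the pairs are not separate observations. How often ratios of other gene pairs do not overlap was not computed, so the 5 of 9 has no background share beside it.

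**Figure D3:**
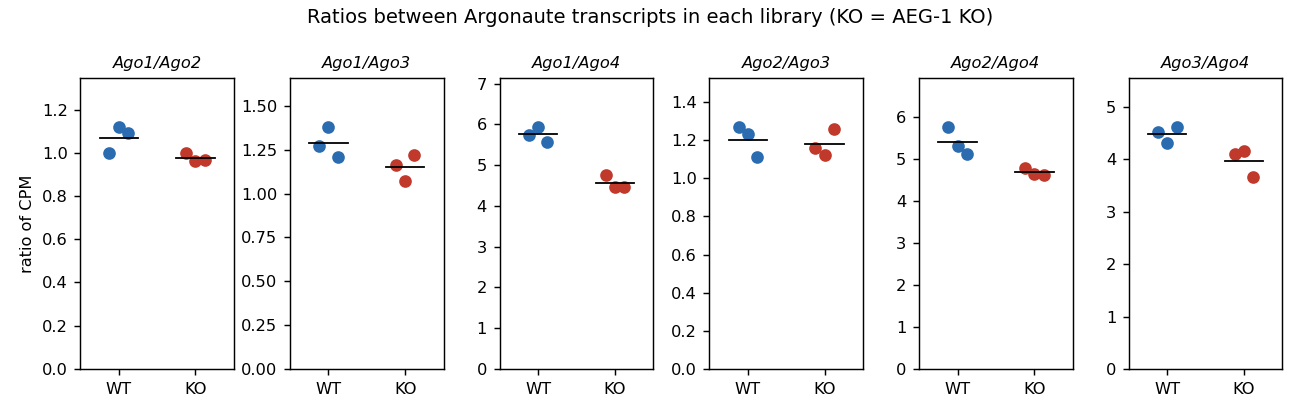
Ratio of CPM between each pair of Argonaute genes in every library (points; linear axes from 0), with the mean as a line, in WT (blue) and AEG-1 KO (red, labelled KO). The ratio of Ago1 to Ago4 runs from 5.58 to 5.94 in WT and from 4.47 to 4.76 in AEG-1 KO.

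Levels of different genes were compared per kilobase of exon, using the union of all annotated exons of a gene. This union (15347 nucleotides for Mtdh and 9757 for Snd1) can be longer than the transcripts present, so orders and shares per kb depend on the annotation. On this scale Ago1 led the Argonautes with 19.7, 20.5 and 20.1 CPM per kb in WT, and Ago4 was lowest with 4.0, 4.03 and 4.21 CPM per kb. As a share of the summed Argonaute level per kb, Ago1 made up 47.0% ± 1.15 (SD, n = 3) in WT and 43.9% ± 0.72 in AEG-1 KO, and Ago4 9.55% ± 0.195 and 11.3% ± 0.323. Ago2 held 25.5% ± 1.10 and 26.1% ± 0.34, and Ago3 18% ± 0.864 and 18.7% ± 0.955. The summed Argonaute level was 42.8 ± 0.386 CPM per kb in WT and 40.1 ± 0.711 in AEG-1 KO. The order of the 10 genes in WT, from the highest level per kb, was Ago1, Mtdh, Snd1, Tnrc6a, Ago2, Ago3, Tarbp2, Dicer1, Ago4 and Tnrc6b. In this order only Mtdh (16.5 to 17.8 CPM per kb) and Snd1 (15.8 to 16.8 CPM per kb) were neighbours whose WT libraries overlapped. Mtdh was thus about as abundant per kb as its partner in wild-type macrophages, at the percentile 78.6 of all tested genes against 77.8 for Snd1. Dicer1 stood at 4.89 to 5.0 CPM per kb in WT, below Ago1, Ago2 and Ago3.

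The enzymes that make the guides did not pass the test. Dicer1, the nuclease, stood at 82.7, 83.7 and 81.8 CPM in WT and at 88.4, 83.7 and 82.6 CPM in AEG-1 KO. The groups overlapped, and the 95% interval of the log2 fold change was -0.06 to 0.14 (0.04; edgeR adjusted p = 0.697). Tarbp2, its RNA-binding helper, stood at 26.6, 25.1 and 23.2 CPM in WT and at 23.0, 22.4 and 23.6 CPM in AEG-1 KO, with overlapping groups (log2 fold change -0.12, 95% interval -0.26 to 0.03; edgeR adjusted p = 0.329). A stretch of up to 202 nucleotides of Tarbp2 is shared at 95% identity or more by the pseudogenes Gm18584 and Gm18561.

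The TNRC6 scaffolds, which carry the repressive step, did not pass either. Tnrc6a stood at 175, 181 and 179 CPM in WT and at 174, 170 and 178 CPM in AEG-1 KO (log2 fold change -0.04, 95% interval -0.13 to 0.05; edgeR adjusted p = 0.664). Tnrc6b stood at 61.9, 64.4 and 64.4 CPM in WT and at 60.2, 63.4 and 64.3 CPM in AEG-1 KO (log2 fold change -0.02, 95% interval -0.13 to 0.08; edgeR adjusted p = 0.842). In both genes the groups overlapped. Short exon stretches of both overlap small genes. Within this family Tnrc6a made up 71.7% ± 0.811 (SD, n = 3) of the summed level per kb in WT and 70.4% ± 0.426 in AEG-1 KO, with Tnrc6c, a paralogue outside the 10 genes, at 14.6% ± 1.08 and 16.0% ± 0.045.

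Of the 10 genes, 4 lie on chromosome 15 with the targeted locus. Ago2, Tnrc6b and Tarbp2 start 39.0, 46.6 and 68.4 Mb beyond Mtdh (GRCm38, 73095844, 80711313 and 102518192), and none of these 3 passed the test. Dicer1 is on chromosome 12 (104687742 to 104751952) and Tnrc6a on chromosome 7 (123123885 to 123195296).

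The wider silencing pathway was described with lists of genes that act before, with and after RISC. Of 21 tested genes of miRNA biogenesis, 1 rose, none fell and 20 did not pass, with a median log2 fold change of -0.02. The share called was 4.76%, against 6.35% of all tested genes. The 1 that rose was Tut4, a uridyl transferase that tails let-7 precursors and short-tailed mRNAs. It stood at 42.1, 42.9 and 45.8 CPM in WT and at 52.6, 57.5 and 52.7 CPM in AEG-1 KO, a log2 fold change of 0.32 ± 0.06 (SE) with an edgeR adjusted p of 0.0111. Leaving out replicate 2 of WT or of AEG-1 KO took it over the threshold, with edgeR adjusted p of 0.0629 and 0.079. The following 4 were named after their values were seen. Drosha and Dgcr8, which release the hairpin in the nucleus, and Prkra, a second Dicer helper, stood at -0.04, 0.03 and 0.00 in log2 fold change, with edgeR adjusted p from 0.676 to 0.996, and the hairpin exporter Xpo5 had -0.14 (edgeR adjusted p = 0.153).

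Of 25 tested genes of RISC loading and accessory proteins, none rose, 4 fell and 21 did not pass, with a median of -0.03. The share called was 16.0%, against 6.35% of all tested genes. The list mixes chaperones with other RISC partners; 3 of the 4 belong to its 9 chaperone and co-chaperone genes (Stip1, Hspa8 and Ahsa1), and the other 6 of those did not pass. Stip1, which bridges the chaperones, went from 134, 134 and 131 CPM in WT to 115, 106 and 106 CPM in AEG-1 KO (log2 fold change -0.29 ± 0.05 SE, edgeR adjusted p = 0.00789). On the log2 scale Hspa8, the HSC70 gene itself, fell by 0.21 with an edgeR adjusted p of 0.0174, and Ahsa1, an activator of HSP90, fell by 0.18 with one of 0.0444. The fourth was Eif1ax, a translation initiation factor (log2 fold change -0.21, edgeR adjusted p = 0.0395). Leaving out AEG-1 KO replicate 2 ended all 4 calls: the edgeR adjusted p became 0.0534 for Stip1, 0.0867 for Hspa8, 0.184 for Ahsa1 and 0.102 for Eif1ax. Hspa8 also needed WT replicate 2 and AEG-1 KO replicate 3 for its call (0.0861 and 0.0586 by edgeR when either was absent, adjusted p). Ahsa1 was lost in 5 of the 6 fits without 1 library and Eif1ax in all 6. These 6 were named after their values were seen. Hsp90ab1 and Hsp90aa1 had log2 fold changes of -0.17 and -0.20 with no overlap of the groups (edgeR adjusted p = 0.0554 and 0.136). In Fkbp4, Cdc37, Ptges3 and Fkbp5 the groups overlapped, with -0.16, -0.11, -0.06 and 0.01. Hspa8 shares a near-identical stretch with 10 other genes and Stip1 with 1.

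The machinery downstream of TNRC6 comes next. Of 32 genes of deadenylation, decapping and decay, 1 rose, none fell and 31 did not pass, with a median of -0.01 and a range from -0.10 to 0.26. That is 3.12% of the list, against 6.35% of all tested genes, whose median was 0.01; a share this close to the background in so short a list is no result about it. The 1 was Btg1, an antiproliferative partner of the CCR4-NOT deadenylases, at 82.5, 88.3 and 91.9 CPM in WT and 104, 108 and 103 CPM in AEG-1 KO (edgeR adjusted p = 0.0174). Its call needed WT replicate 2 and each AEG-1 KO library, since edgeR gave an adjusted p from 0.051 to 0.122 when any of these was absent. Cnot6l, a deadenylase subunit gene named after its values were seen, had 0.24 (edgeR adjusted p = 0.0572). Of 8 tested proteins known to bind AEG-1, Snd1 among them, none passed at an edgeR adjusted p under 0.05 and 1 at an unadjusted p under 0.05. DESeq2 called 1. After Snd1 the smallest p was that of Rxra, a nuclear receptor gene, at 93.0, 91.6 and 78.8 CPM in WT and 90.0, 97.9 and 103 CPM in AEG-1 KO (edgeR adjusted p = 0.301). The same libraries had the higher monocyte, neutrophil and stromal marker sums given above, whose part in these lists was not tested.

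**Figure D4:**
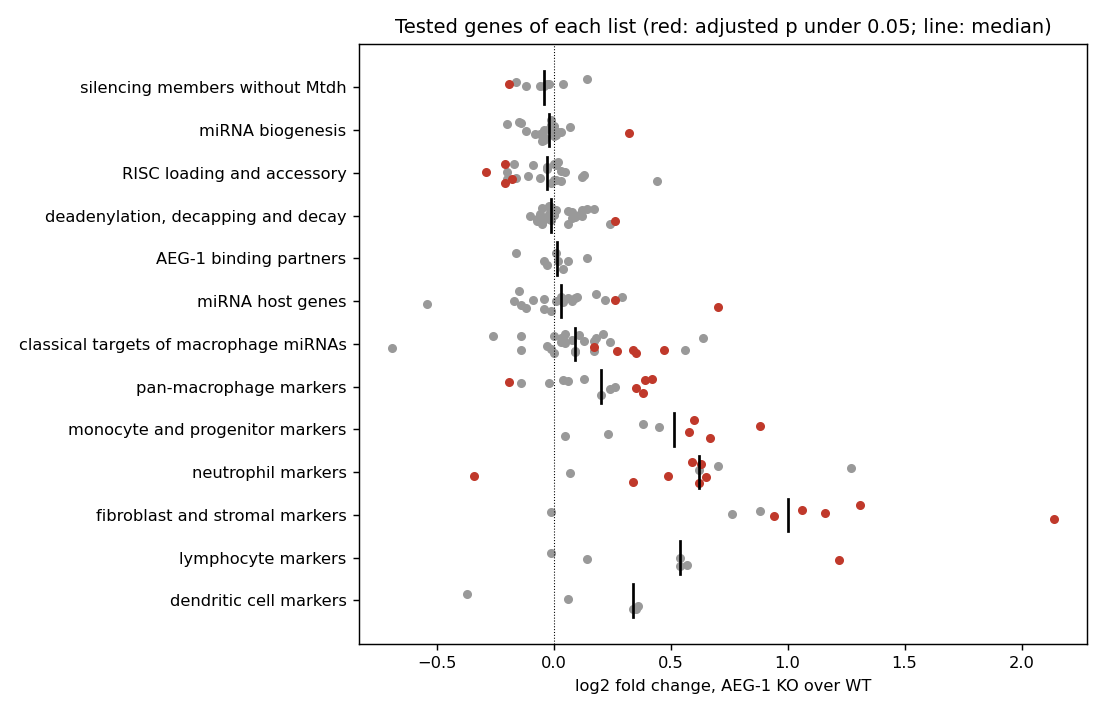
Log2 fold change of AEG-1 KO over WT for the tested genes of each list (points, spread vertically at random; red where the edgeR adjusted p is under 0.05), with the list's median as a line. Mtdh (-9.37) is left out of the top row. The 5 pathway rows that follow centre between -0.03 and 0.03, while the monocyte, neutrophil and stromal rows centre at 0.51, 0.62 and 1.0. The lymphocyte and dendritic cell rows centre at 0.54 and 0.34.

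Precursor transcripts of miRNAs can be read where a long host RNA carries the hairpin. Of 21 tested genes listed as hosts, 2 rose, none fell and 19 did not pass, with a median of 0.03. The share called was 9.52%, against 6.35% of all tested genes. A RefSeq hairpin lay inside 19 of the 21 on the same strand, and in Dnm2 and Ptk2, which did not pass, none did. F630028O10Rik contains the miR-223 hairpin (GRCm38 chromosome X, 96242817 to 96242926, plus strand). It rose from 37.5, 41.2 and 42.8 CPM in WT to 65.4, 65.4 and 66.9 CPM in AEG-1 KO, with no overlap (a log2 fold change 0.70 ± 0.06 SE, edgeR adjusted p = 0.000196). miR-223 is known for its high level in neutrophils and other myeloid cells. In the same libraries 6 of 11 neutrophil markers rose and 1 (Lcn2) fell, with a median log2 fold change of 0.62. Their part in the rise of F630028O10Rik was not tested. Ctdsp2, a phosphatase gene with the miR-26a-2 hairpin inside it (chromosome 10, 126995530 to 126995613, plus strand), went from 54.9, 57.4 and 54.5 to 62.2, 67.0 and 70.6 CPM, or 0.26 ± 0.06 (SE) in log2 fold change, with an edgeR adjusted p of 0.0267. That call needed WT replicates 1 and 2 and AEG-1 KO replicates 2 and 3, since edgeR gave an adjusted p from 0.057 to 0.118 when any of these was absent. Ctdsp2 also shares an 811-nucleotide stretch with Gm9770. Srebf2, which contains the miR-33 hairpin and was named after its values were seen, spread over 55.9 to 76.5 CPM in WT and did not pass (log2 fold change 0.10, edgeR adjusted p = 0.632).

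Classical targets of macrophage miRNAs give a view of what RISC acts on. Of 30 tested targets, 5 rose, none fell and 25 did not pass, with a median of 0.09 against 0.01 over all tested genes. The share called was 16.7%, against 6.35% of all tested genes (3.31% higher). Nlrp3, an inflammasome sensor and a known target of miR-223, stood at 48.1, 45.8 and 50.6 CPM in WT and at 68.4, 71.1 and 61.1 CPM in AEG-1 KO (log2 fold change 0.47 ± 0.07 SE, edgeR adjusted p = 0.00343). Mef2c, a transcription factor gene also known as a miR-223 target and named after its values were seen, stood at 26.0, 28.7 and 29.6 and at 34.1, 35.5 and 31.9 CPM (log2 fold change 0.27, edgeR adjusted p = 0.0475). The Mef2c call was lost in 5 of the 6 fits without 1 library (edgeR adjusted p from 0.0645 to 0.218; 0.0374 without WT replicate 3), and the list then held 3 calls in each of those 5 fits. Pknox1, the other known miR-223 target listed and also named after its values were seen, averaged 24.1 ± 0.694 CPM in WT and 24.9 ± 0.646 in AEG-1 KO (SD, n = 3), with overlapping groups (log2 fold change 0.04, edgeR adjusted p = 0.691). Of the 3 miR-223 targets, 2 were thus called higher and 1 was not. Abca1 and Npc1, cholesterol transport genes known as miR-33 targets, rose by 0.35 and 0.17 on the log2 scale, with edgeR adjusted p of 0.00101 and 0.027, and Il6st, a cytokine receptor subunit gene, by 0.34 (edgeR adjusted p = 0.00289). Npc1 lost its call without any 1 of the 6 libraries (edgeR adjusted p from 0.0539 to 0.136), and its exons overlap genes on the other strand. Abcg1, a further miR-33 target named after its values were seen, gave a log2 fold change of 0.00, for which the edgeR adjusted p was 0.972.

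A seed match was then sought in 3′ untranslated regions, as the 8-letter complement of seed bases 2 to 8 followed by A, on the transcript strand alone, in the longest GENCODE M21 region of each of 12287 tested genes. The letters were AACTGACA for miR-223-3p and CAATGCAA for miR-33-5p. Matches in the miR-223 and miR-33 targets named above are shown with the 14 bases before them, the match in capitals, since they show which of these transcripts carry the letters.
Mef2c, miR-223: caaactattgggtcAACTGACA
Pknox1, miR-223: agttcggtctttgaAACTGACA
Abca1, miR-33, first: gtactgacactattCAATGCAA
Abca1, miR-33, second: aatgcaatgcacttCAATGCAA
Abcg1, miR-33: ggactaacgcaacgCAATGCAA
In their regions these begin at base 1265 in Mef2c, at base 2599 in Pknox1, at bases 135 and 150 in Abca1, and at base 717 in Abcg1. Nlrp3 (693 nucleotides searched) held 0 matches to the miR-223 letters and Npc1 (1227 nucleotides) 0 to those of miR-33, and both genes rose. Shorter matches and other regions of a gene were not searched, so 0 means only that these 8 letters were absent from the longest region. Abca1 and Abcg1 both carry the miR-33 letters, while their log2 fold changes were 0.35 and 0.00, and Mef2c and Pknox1 both carry those of miR-223, with 0.27 and 0.04.

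Whole sets of genes with such a match were then described. The miR-223 letters were in 401 of the 12287 genes (3.26%), of which 4.24% rose and 3.99% fell, with a median log2 fold change of 0.023. Over all 12287 genes, 4.04% rose and 3.39% fell, with a median of 0.015. The miR-33 letters were in 242 genes (1.97%), of which 6.20% rose and 3.72% fell, and those of miR-26a-5p (TACTTGAA) were in 592 genes (4.82%), of which 5.57% rose and 3.21% fell. For miR-155-5p (AGCATTAA), miR-146a-5p (AGTTCTCA) and let-7a-5p (CTACCTCA), found in 3.22%, 4.50% and 3.59% of genes, the share that rose was 4.55%, 5.24% and 4.99% and the median log2 fold change 0.033, 0.029 and 0.030. The share that fell was 3.79%, 2.71% and 3.4% in the same order. The highest shares that rose were in the sets of miR-22-3p (GGCAGCTA, in 2.25% of genes), miR-21a-5p (ATAAGCTA, 2.29%) and miR-142a-3p (ACACTACA, 3.0%), at 7.22%, 7.12% and 6.50%, where 2.53%, 3.91% and 3.79% fell and the medians were 0.019, 0.047 and 0.024. The lowest was that of miR-17-5p (GCACTTTA, 4.36%), at 4.10%, where 3.36% fell and the median was 0.024. In all 10 sets the share that rose was above the 4.04% of all genes, by amounts that were not tested. The share that fell was also above the 3.39% of all genes in most sets. These were the sets of miR-223-3p, miR-33-5p, miR-142a-3p, miR-155-5p, miR-21a-5p and let-7a-5p. Genes with a match have longer untranslated regions (a median of 2399 to 2999 nucleotides in the 10 sets, against 1136 over all genes), and the part of length in these values was not tested. A match is a description of the letters and not a measured site.

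**Figure D5:**
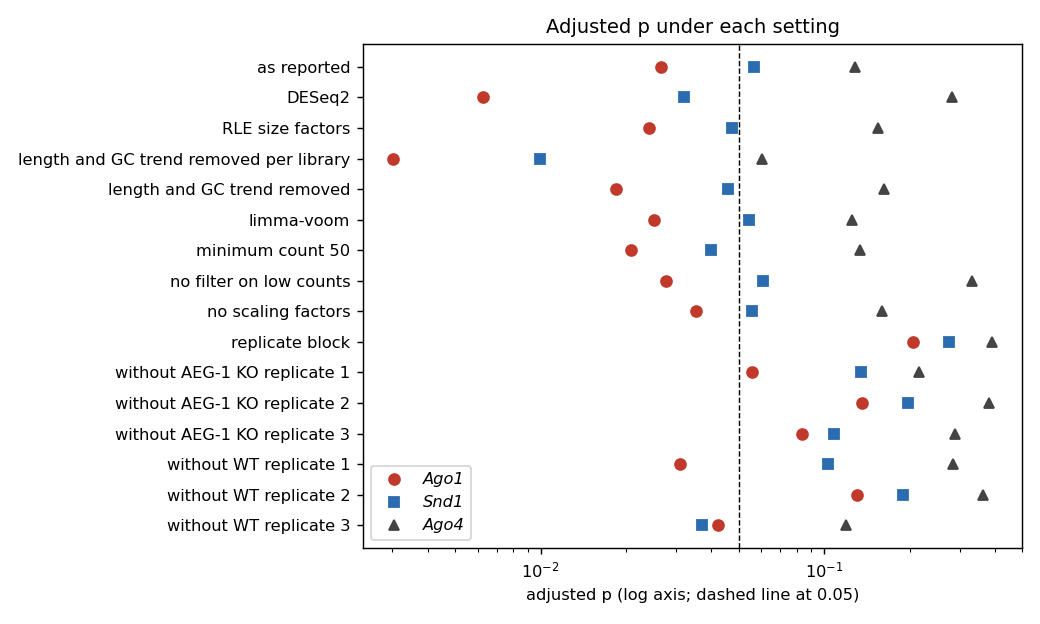
Adjusted p of Ago1 (red circles), Snd1 (blue squares) and Ago4 (grey triangles) on a log axis, as reported and under 15 other settings, with a dashed line at 0.05. Ago1 is left of the line in 10 of the 15, Snd1 in 6 and Ago4 in none.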

How the data were processed

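Libraries of total RNA (Illumina TruSeq) were read on a HiSeq, per the labels' protocols. Deposited by the authors are raw read counts per Ensembl gene in 6 libraries, as 1 table. The submitters' processing notes list edgeR 3.18.1, featureCounts 1.4.6-p4, Subread, cutadapt 1.9 and FastQC 0.11.2, with GRCm38 and mm10 as builds. Strand setting, annotation release and the handling of reads with several matches: not given in the sources used here.

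Of 46983 identifiers, 46488 matched GENCODE mouse M21 (GRCm38). After filterByExpr at a minimum count of 10, TMM factors were computed and the quasi-likelihood test of edgeR 4.0.16 (R 4.3.3) was run, with genotype as the only term and Benjamini-Hochberg adjustment over 16115 genes, called at 0.05. Standard errors are the size of the log2 fold change divided by √F. CPM per kb uses the union of exons. Near-identical copies are BLAST matches of at least 95% over at least 100 nucleotides. On simulated AEG-1 KO against WT data (15966 genes), 95% of changes of 1 and 83% of changes of 0.5 on the log2 scale were recovered, and 10.55% of calls were false. This false share lay above the nominal 0.05. Smaller changes, such as those of the silencing genes other than Mtdh, were not simulated, so their recovery is not known.

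The members, lists, tests and alternatives were chosen with earlier results of these data known. The genes named are the 10 members, in each list up to 4 called genes by smallest adjusted p (or 2 with the smallest p where none is called), and the 3 most like Mtdh; others are said to be named after their values were seen. Seed-match sets and the per-library removal of a trend on length and GC content (mgcv 1.9.3) were added after seeing the data. The replicate pairs gave a chi-square per degree of freedom of 5.58 to 19.3, so no library was a duplicate. The remaining fixed lists, of lymphocyte and dendritic cell markers, held 1 rise (Pax5, edgeR adjusted p = 0.00355) in 6 tested genes and 0 in 5 (Xcr1 and Ccr7, with the smallest p, at edgeR adjusted p = 0.379 and 0.451; 0 at an unadjusted p under 0.05 and 0 by DESeq2). Their median log2 fold changes were 0.54 for lymphocyte and 0.34 for dendritic cell markers. Alternatives were RLE factors, unscaled totals, all genes unfiltered, a minimum count of 50, DESeq2 1.42.0, limma-voom (limma 3.58.1), a replicate block, length and GC trends, and leaving out each library.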

Additional observations from a re-analysis of the deposited data

How the results depend on the processing

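The count of genes called, 1023 in all, was 227 with the replicate number as a block, 2323 with a trend on length and GC content removed per library (an alternative chosen after seeing the data), and 380 to 1092 without 1 library; in the 7 other settings it was 1004 to 1252. The count of called silencing genes, 2 with Mtdh, was 1 with the replicate block and 1 to 3 without 1 library. Over all settings, counts called ran from 0 to 4 for biogenesis (1 as reported), 0 to 6 for RISC loading (4), 0 to 2 for decay (1), 0 to 2 for AEG-1 partners (0), 1 to 3 for hosts (2), 1 to 8 for targets (5), 2 to 9 for neutrophil (7), 2 to 6 for stromal (5) and 4 to 8 for pan-macrophage markers (5). Same-numbered libraries did not deviate together (correlations of -0.274 to -0.173), and no library correlated best with its own number. With 3 libraries per group these correlations cannot exclude a pairing, and the labels name none. Mtdh kept its direction and call in all 15 settings. Ago3 changed sign without AEG-1 KO replicate 3 (0.01) and without WT replicate 3 (0.01), and Tnrc6b without AEG-1 KO replicate 1 (0.01), none past the threshold; without 1 library they ranged from -0.08 to 0.01 and from -0.05 to 0.01. Of 150 values of the 10 genes under other settings, 136 kept direction and side of the threshold. The cause of these moves was not tested. At 954 reads or more per library for every silencing gene, the standard errors were 0.04 to 0.06, and the smallest change called in any gene was 0.151 on the log2 scale.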
